A study of Mus musculus with 6 samples.

Results

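The protein disulfide isomerases (PDIs) were examined here as 10 genes, chosen by symbol: Pdia3, Pdia4, Pdia5, Pdia6, P4hb, Txndc5, Txndc11, Tmx1, Tmx3 and Erp44. All 10 were found among the 16060 rows of the expression table, and all 10 passed the filter on low values, which left 13321 genes for testing. RNA had been sequenced from the hippocampus (HIPP) of 3 saline-treated (Control) and 3 methamphetamine-treated (MA) mice, 1 library each. All were adult male C57BL/6 mice. The control group was given saline intraperitoneally, and the MA group was given MA in doses that rose from 5 mg/kg in week 1 to 10 mg/kg in week 2 and 15 mg/kg in week 3. Behavior was tested on day 22, and the animals were killed right after it. The comparison asked which genes differed between the HIPP of the 2 groups in this model of anxiety-like behavior.

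PDIs are enzymes of the endoplasmic reticulum (ER) that make, break and reshuffle disulfide bonds in proteins that are being folded for secretion or for membranes. Their active sites lie in thioredoxin-like domains, and they hand the electrons they take up to ER oxidases such as Ero1. Neurons rely on this machinery for receptors, channels and secreted peptides. Several family members are known targets of the unfolded protein response, the program by which cells match ER folding capacity to demand.

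The deposited values were taken as log2 values and appear to have been brought near a common distribution between libraries. The highest value was the same in each library, but the low end differed. Genes at 0 numbered 437, 364 and 417 in Control replicates 1, 2 and 3, and 362, 259 and 0 in MA replicates 1, 2 and 3. The values are named as RPKM, a measure per gene length, and levels were compared between genes on that reading. Whether they were scaled by length was not tested. Each log2 fold change was taken as MA mean minus Control mean, with groups as labelled. The table holds no check, independent of the labels, of which mice received MA, and every sign given here would turn if the group names were exchanged. Depth is unknown because the table holds no read totals. All 8 markers of hippocampal excitatory neurons were above a log2 value of 3.26 in every library. The library labelled MA replicate 3 stood apart, with a mean Pearson correlation of 0.978 with its group across genes, against 0.984 to 0.993 for the other 5. All 12 choroid plexus epithelium markers were higher in each library labelled MA than in any Control library, as were 7.32% of all tested genes. Their summed back-transformed level ran from 101.4 to 479.1 in the Control libraries and from 1937 to 5321 in the MA libraries. The 5 red blood cell genes were also higher in each MA library, with sums of 1599 to 2024 against 3319 to 4378. At an unadjusted limma p under 0.05, 5.46% of all tested genes were lower in MA and 4.99% were higher. At this threshold 2 of 8 excitatory neuron markers and 1 of 8 astrocyte markers were lower, and 2 of 8 endothelial and 2 of 6 thalamic markers were higher. Of the oligodendrocyte and microglial markers, 0 of 8 and 0 of 8 passed. The part of these tissues in the values given next was not tested. In tissue RNA, fewer cells of a type and less RNA per cell cannot be told apart.

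All 10 genes had a lower mean in the libraries labelled MA, whereas 52.7% of all tested genes did. The differences were unequal. Pdia4, Pdia6 and Pdia3 had log2 fold changes of -0.79, -0.68 and -0.35, and the other 7 lay between -0.27 and -0.06. The median over the 10 genes was -0.18, and over all tested genes it was -0.010. At the threshold of 0.05 on limma's p-value after Benjamini-Hochberg adjustment over 13321 genes, 0 members were called, beside 0.263% of the tested genes (0.0976% lower in MA). An unadjusted p-value under 0.05 was reached by 4 members, all lower in MA, and by 5.46% of all tested genes in that direction. In 5 members all MA libraries were below all Control libraries, as they were for 10.2% of all tested genes. No member had all MA libraries above all Control libraries, as 7.32% of the tested genes did. With 3 libraries per group, 0.1 is the smallest two-sided p of an exact permutation test, and groups that do not overlap always give it. The 5 members without overlap therefore had this p, which adds nothing to their count.

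**Figure D1:**
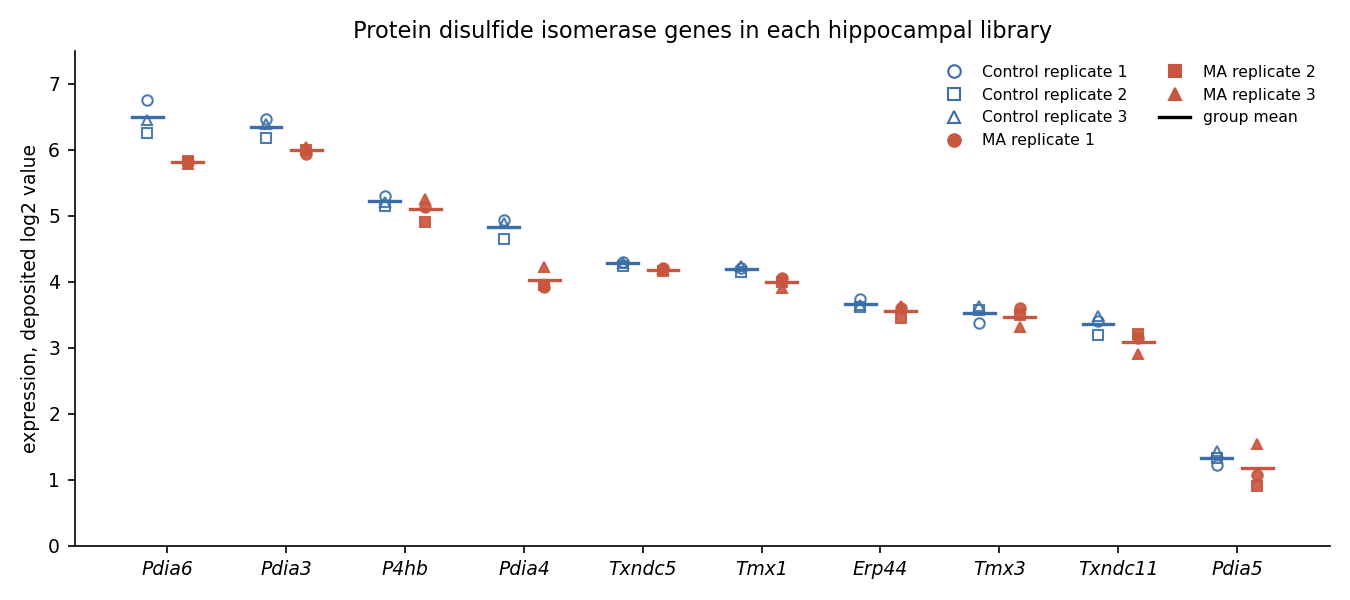
Deposited log2 expression value (y axis) of the 10 PDI genes (x axis, ordered by Control mean) in each of the 6 libraries. Open blue symbols are Control, filled red symbols are MA, the symbol shape is the replicate and bars are group means. Pdia6, Pdia3 and Pdia4 show the clearest gaps between the groups, while P4hb, Erp44, Tmx3, Txndc11 and Pdia5 overlap.

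Among the soluble enzymes of the ER lumen, Pdia4 had the largest difference. It encodes an enzyme with several thioredoxin-like domains that is found in chaperone complexes with Hspa5. The gene (ENSMUSG00000025823) is on the minus strand of chromosome 6 (GRCm38, 47796141 to 47813430), with exons that overlap Mir704 on the same strand. Its log2 values were 4.93, 4.65 and 4.88 in Control replicates 1, 2 and 3, and 3.93, 3.94 and 4.22 in MA replicates 1, 2 and 3. The lowest Control library was thus 0.43 above the highest MA library, which was replicate 3. The group means were 4.82 ± 0.15 and 4.03 ± 0.17 (SD, n = 3 each), and the log2 fold change was -0.79 (limma, standard error 0.12, adjusted p = 0.0628, unadjusted p = 0.000233). By unadjusted p it ranked 48 among the 13321 tested genes. Back-transformed with an offset of 1, which was inferred from the lowest value of 0, the MA mean was 43.8% below the Control mean. Pdia4 passed the adjusted threshold without MA replicate 3 (log2 fold change -0.89, limma adjusted p = 0.0252), a fit in which 0.743% of all genes were called lower.

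Pdia6 encodes a PDI that also binds Hspa5 and is known to dampen signalling of the stress sensor Ire1. The gene (ENSMUSG00000020571) is on the plus strand of chromosome 12 (GRCm38, 17266545 to 17284770). Control replicates 1, 2 and 3 had log2 values of 6.75, 6.26 and 6.45, and MA replicates 1, 2 and 3 had 5.82, 5.82 and 5.79. The MA libraries lay within 0.036 of each other, whereas the Control libraries spanned 0.49, and the groups were separated by a gap of 0.44. The means were 6.49 ± 0.25 and 5.81 ± 0.02 (SD, n = 3 each). The log2 fold change was -0.68 (limma, standard error 0.12, adjusted p = 0.122), or 38.6% on the back-transformed scale. Pdia6 passed the adjusted threshold with limma's sample quality weights (log2 fold change -0.62, adjusted p = 0.0337), as Pdia4 did (-0.84, adjusted p = 0.00725). With these weights 2.05% of all genes were called lower. Exons of Pdia6 overlap those of Atp6v1c2 on the other strand. Whether counting used strand is not given in the sources used here, so reads of such pairs may not have been separated.

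Pdia3 encodes the PDI that works with the lectin chaperones calnexin and calreticulin on glycoproteins, and it is part of the complex that loads peptide onto MHC class I. The gene (ENSMUSG00000027248) is on chromosome 2 from 121413775 to 121438687 on the plus strand, with exons that overlap Catsper2 on the other strand. Its log2 values were 6.47, 6.18 and 6.39 in the Control libraries and 5.94, 6.00 and 6.04 in the MA libraries, replicates 1, 2 and 3 in turn. All MA libraries were below all Control libraries, by at least 0.14. The means of 6.35 ± 0.15 and 5.99 ± 0.05 (SD, n = 3 each) gave a log2 fold change of -0.35 (limma, standard error 0.09, adjusted p = 0.265, unadjusted p = 0.00647).

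**Figure D2:**
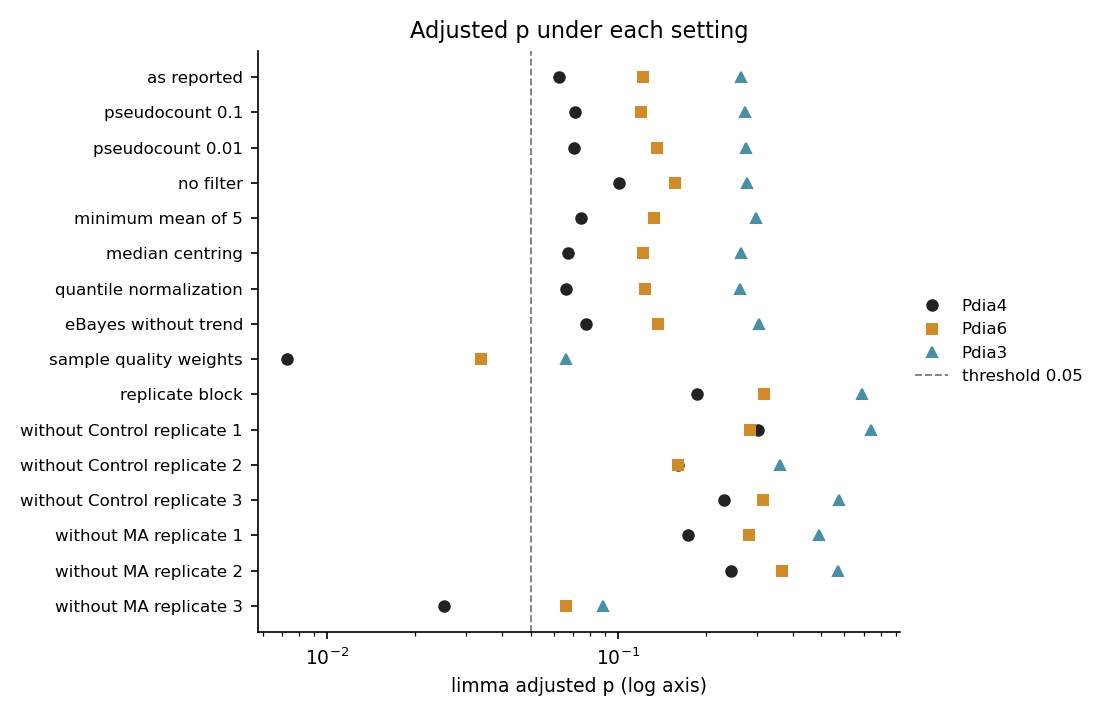
Limma adjusted p-value (x axis, log scale) of Pdia4, Pdia6 and Pdia3 as reported and under 15 other settings (y axis). The dashed line is the threshold of 0.05. Pdia4 passes it with sample quality weights and without MA replicate 3, Pdia6 with sample quality weights, and Pdia3 under none of the settings shown.

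P4hb encodes the founding enzyme of the family, which is also the beta subunit of collagen prolyl 4-hydroxylase and a subunit of the microsomal triglyceride transfer protein. Its log2 values were 5.30, 5.14 and 5.21 in Control replicates 1, 2 and 3, and 5.13, 4.91 and 5.25 in MA replicates 1, 2 and 3. The groups overlapped, since MA replicate 3 was above 2 of the Control libraries. The log2 fold change was -0.12, with a 95% interval from limma of -0.37 to 0.13, so a drop of the size seen for Pdia4 lies outside it. It was -0.20 without MA replicate 3 and -0.027 without MA replicate 2.

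Txndc5 encodes a lumenal PDI with rapid disulfide transfer to its substrates. The libraries were close together, at 4.304, 4.243 and 4.28 in Control and 4.20, 4.16 and 4.19 in MA. They did not overlap between groups, yet the gap was only 0.040 and the log2 fold change of -0.09 had an interval of -0.27 to 0.09. Exons of Txndc5 overlap Bmp6 and Gm31834 on the other strand. Pdia5, an enzyme linked to activation of the stress sensor Atf6, was the lowest of the 10 genes. Its log2 values were 1.23, 1.33 and 1.44 in Control and 1.07, 0.91 and 1.54 in MA, where replicate 3 was the highest library of all 6. The difference of -0.16 (95% interval -0.57 to 0.25) was smaller than the spread of the MA libraries, whose SD was 0.33. It was -0.34 without MA replicate 3, where its unadjusted limma p was 0.0253, and -0.026 without MA replicate 2. Erp44 encodes a protein that cycles between the ER and the early secretory pathway and retains Ero1 oxidases. It was 3.73, 3.61 and 3.64 in Control and 3.60, 3.45 and 3.64 in MA, with a log2 fold change of -0.10 and an interval of -0.32 to 0.12. Without MA replicate 2 it was -0.045, and without Control replicate 1 it was -0.065.

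The other 3 genes encode membrane-anchored proteins. Tmx1, a transmembrane PDI that acts on membrane-bound substrates, had log2 values of 4.22, 4.14 and 4.23 in Control and 4.06, 3.995 and 3.91 in MA. The groups did not overlap, with a gap of 0.083. Its log2 fold change was -0.21 (limma, standard error 0.08, adjusted p = 0.452, unadjusted p = 0.0400). When single libraries were left out, its unadjusted limma p was 0.0415 without MA replicate 1 and 0.0535 to 0.122 without any one of the other 5. Txndc11, a membrane protein with thioredoxin-like domains, was 3.40, 3.20 and 3.47 in Control and 3.14, 3.20 and 2.91 in MA. MA replicate 2 and Control replicate 2 met at 3.20, and the difference of -0.27 had an unadjusted limma p of 0.0576. Exons of Txndc11 overlap Snn on the other strand. Tmx3, another transmembrane PDI, was 3.38, 3.57 and 3.64 in Control and 3.60, 3.49 and 3.32 in MA. Its groups overlapped widely, and its log2 fold change was -0.06 (95% interval -0.33 to 0.21), or 0.019 without MA replicate 3. Exons of Tmx3 overlap AC163277.1 on the same strand, so strand alone would not separate their reads.

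**Figure D3:**
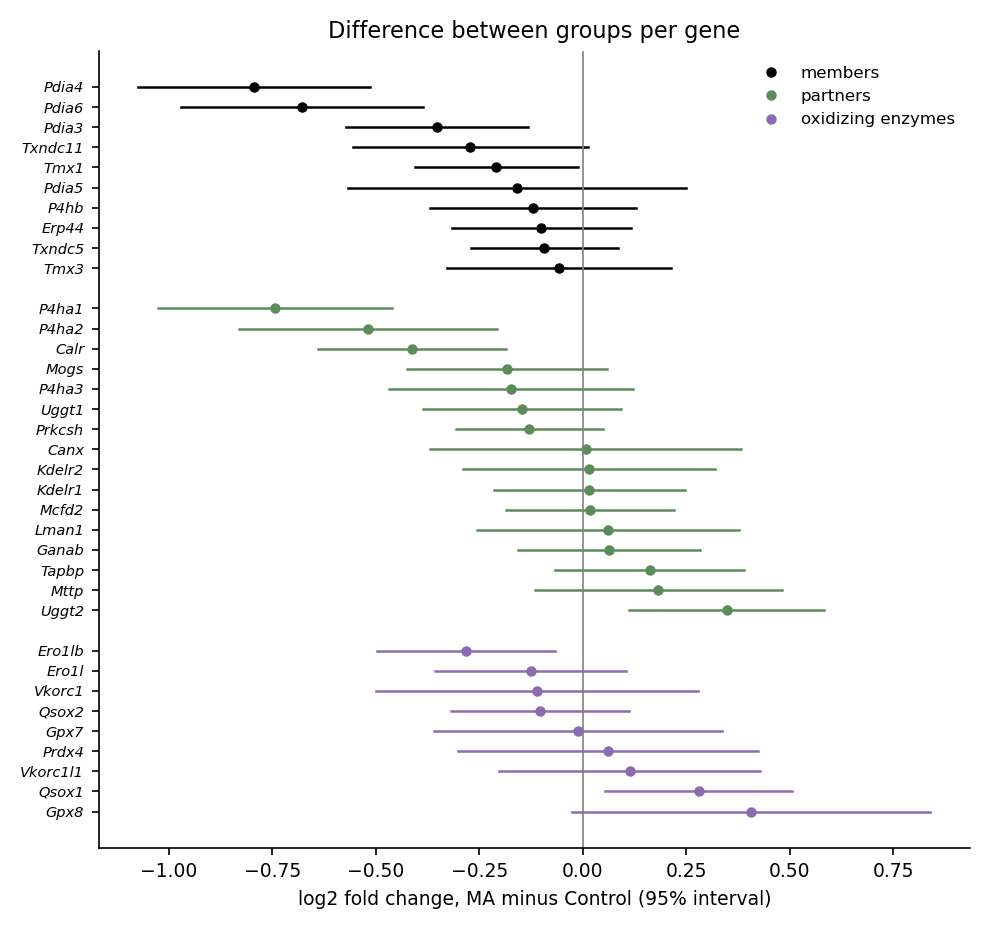
Log2 fold change, MA minus Control (x axis), with its 95% interval from limma (unadjusted) for the 10 PDI genes, 16 partner genes and 9 oxidizing enzymes (y axis, by group). Pdia4, Pdia6, P4ha1 and P4ha2 lie farthest to the left, and Gpx8, Uggt2 and Qsox1 farthest to the right.

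The order of the levels within the family differed between the groups at 2 places. By Control mean the order was Pdia6 at 6.49, Pdia3 at 6.35, P4hb at 5.22, Pdia4 at 4.82, Txndc5 at 4.28, Tmx1 at 4.20, Erp44 at 3.66, Tmx3 at 3.53, Txndc11 at 3.36 and Pdia5 at 1.33. Neighbours whose Control libraries overlapped were Pdia6 and Pdia3, Erp44 and Tmx3, and Tmx3 and Txndc11. In MA, Pdia3 at 5.99 stood above Pdia6 at 5.81, and Txndc5 at 4.18 above Pdia4 at 4.03. The MA libraries of Pdia3 and Pdia6 did not overlap, while those of Pdia4 overlapped with both Txndc5 and Tmx1. Measured within each library, Pdia3 minus Pdia6 was -0.29, -0.080 and -0.064 in Control and 0.12, 0.17 and 0.25 in MA. Pdia4 exceeded Txndc5 by 0.63, 0.41 and 0.60 in Control, and the same difference was -0.28, -0.21 and 0.028 in MA. Neither pair overlapped between the groups. Of all 45 member pairs, 19 did not overlap. Among them were 18 of the 24 with Pdia3, Pdia4 or Pdia6, and 1 of the 21 without them. These genes had the largest differences among the members, so the counts largely restate their fold changes. Pairs share genes, and the share of all gene pairs without overlap was not counted. Whether the scaling of the deposited values changed these within-library differences was not tested. The 2 pairs were looked at after the values were seen and were not tested.

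**Figure D4:**
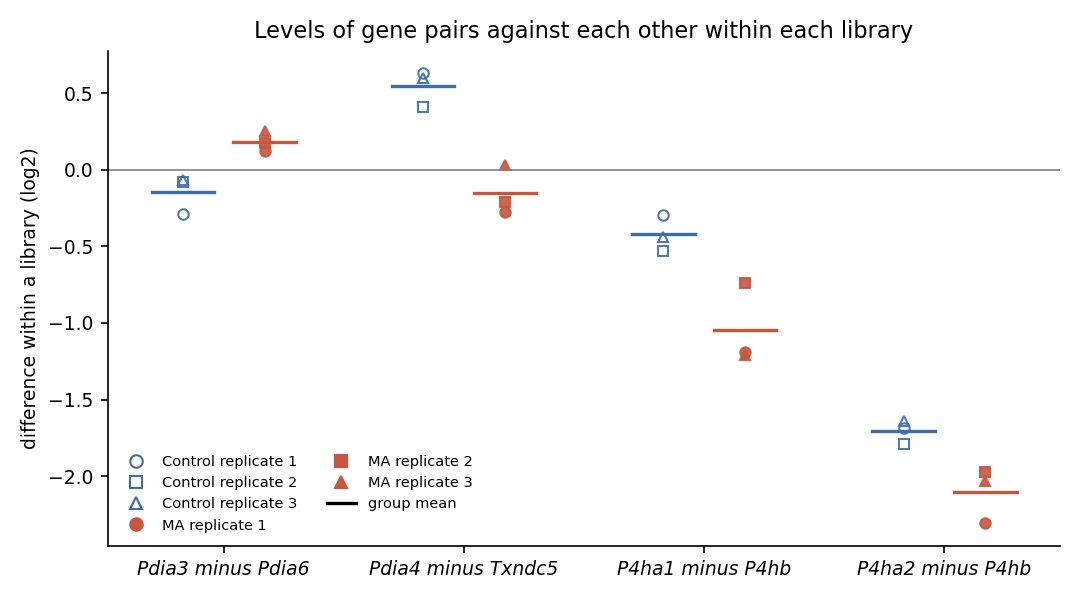
Difference between the log2 values of 2 genes within a library (y axis) for 4 gene pairs (x axis), in Control (open blue) and MA (filled red) libraries, with group means as bars and the replicate as symbol shape. The line at 0 marks equal levels. Pdia3 minus Pdia6 is below it in all 3 Control libraries and above it in all 3 MA libraries.

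Summed on the back-transformed scale, the 10 genes came to 331.3, 272.0 and 305.1 in Control replicates 1, 2 and 3 and to 228.3, 223.0 and 234.0 in MA replicates 1, 2 and 3. Pdia3 and Pdia6 together made up 54.1% to 58.7% of that sum in Control and 50.7% to 53.2% in MA. The share of Pdia4 was 8.88% to 9.35% in Control and 6.22% to 7.54% in MA. That of P4hb was 11.6% to 12.6% in Control and 13.03% to 15.8% in MA. A share depends on the sum, which was lower in MA. The back-transformed mean of P4hb itself was 7.89% lower in MA, with groups that overlapped.

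Promoter sequences from RefSeq (GRCm38.p6) were read for the 2 genes with the largest differences and for P4hb, an abundant member whose groups overlapped. The ER stress response element (ERSE), CCAAT followed by 9 bases of any kind and CCACG, is the known binding site of Atf6 together with NF-Y. Each stretch is written 5′ to 3′ toward the gene and stops before the first base annotated as transcribed. Capitals mark the parts of the ERSE, CCAAT and CCACG, on either strand, so that ATTGG and CGTGG are these parts on the other strand. The stretches are chr12:17266339-17266544 on the plus strand for Pdia6, chr6:47813513-47813762 on the minus strand for Pdia4 and chr11:120573254-120573503 on the minus strand for P4hb.
Pdia6: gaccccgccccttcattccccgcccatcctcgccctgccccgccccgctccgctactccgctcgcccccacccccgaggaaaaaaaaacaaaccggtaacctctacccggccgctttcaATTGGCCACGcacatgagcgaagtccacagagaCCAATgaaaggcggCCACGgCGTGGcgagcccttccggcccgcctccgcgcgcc
Pdia4: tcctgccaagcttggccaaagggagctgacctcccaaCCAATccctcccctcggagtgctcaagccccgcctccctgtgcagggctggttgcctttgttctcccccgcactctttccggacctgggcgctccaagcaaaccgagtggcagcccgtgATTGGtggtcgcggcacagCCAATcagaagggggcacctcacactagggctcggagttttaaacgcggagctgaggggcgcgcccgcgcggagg
P4hb: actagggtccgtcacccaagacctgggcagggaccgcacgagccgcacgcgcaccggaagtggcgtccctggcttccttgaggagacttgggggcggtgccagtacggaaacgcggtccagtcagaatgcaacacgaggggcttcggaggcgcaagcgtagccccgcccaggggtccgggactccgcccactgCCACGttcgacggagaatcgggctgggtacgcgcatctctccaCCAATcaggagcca

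Within 250 bases before the start, searched on both strands, 1 of the 9 members with a promoter entry held a whole ERSE. This was Pdia6, where the motif began 98 bases before the RefSeq start. The stretch printed for Pdia6 has 206 bases and stops before the RefSeq start, while the search ran to that start. A further CCACG, on the other strand 12 bases before the RefSeq start, is therefore not printed. Of all 32851 promoter windows of that length, 0.113% held it. A member was counted if any of its windows held a motif, and the 9 members have 13 windows. Counts of members and shares of windows are therefore not in the same unit. CCAAT alone was found in 5 members and in 33.8% of all windows, and CCACG alone in 6 members and in 28.3%. Both are part of the ERSE and overlap with it. Pdia4 had 3 copies of CCAAT and none of CCACG in this window, and P4hb had 1 of each in an order other than that of the ERSE. In Pdia6, a further CCAAT on the other strand stood directly beside a CCACG. The motif TGACGTGG, known as a site of Atf6 and Xbp1, holds CCACG on its other strand. It was found in 2 members, Txndc5 and Txndc11, and in 0.563% of all windows. A match describes these letters only. Tmx3 has no entry among these promoters.

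The partners of the PDIs were followed in a list of 17 genes of the lectin cycle, prolyl hydroxylation, cargo transport and ER retrieval, of which 16 were tested. Of these, 3 were lower and 1 was higher in MA at an unadjusted p-value under 0.05, where 5.46% and 4.99% of all tested genes were. None passed the adjusted threshold. The median log2 fold change of the 16 was 0.010. The 3 lower genes were P4ha1, P4ha2 and Calr.

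P4ha1 and P4ha2 encode catalytic alpha subunits of collagen prolyl 4-hydroxylase, the enzyme in which P4hb is the beta subunit. P4ha1 had log2 values of 5.001, 4.61 and 4.77 in Control and 3.94, 4.17 and 4.04 in MA, with no overlap. Its log2 fold change of -0.74 (limma, standard error 0.12, adjusted p = 0.0785) was close in size to that of Pdia4. For P4ha2 the values were 3.61, 3.35 and 3.57 in Control and 2.82, 2.93 and 3.22 in MA, a log2 fold change of -0.52 (limma, standard error 0.13, adjusted p = 0.252). Both passed the adjusted threshold without MA replicate 3, at limma adjusted p-values of 0.0498 and 0.0443, where 0.743% of all genes were called lower. With sample quality weights P4ha1, P4ha2 and Calr were called lower (0.0283, 0.0311 and 0.0471), as 2.05% of all genes were, and Uggt2 higher (0.0427), as 2.35% were. P4ha3, the remaining alpha subunit, had a log2 fold change of -0.17 and an unadjusted limma p of 0.209. Within each library P4ha1 minus P4hb was -0.29, -0.53 and -0.44 in Control and -1.19, -0.74 and -1.21 in MA, so the alpha subunit lay farther below its partner in each MA library. This difference follows from the fold changes of P4ha1 and P4hb. The pairs of P4ha1 and P4ha2 with P4hb were picked after the values were seen and were not tested.

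Calr encodes calreticulin, the lumenal lectin that recruits Pdia3. It was 7.95, 7.61 and 7.75 in Control and 7.35, 7.33 and 7.39 in MA, above the level of every PDI in both groups. Its log2 fold change was -0.41 (limma, standard error 0.10, adjusted p = 0.219), near that of Pdia3. Canx encodes calnexin, the membrane-bound lectin with the same role, and had a log2 fold change of 0.01 with a 95% interval of -0.37 to 0.39. Uggt2, a homolog of the glycoprotein folding sensor Uggt1, was the 1 higher gene, at 2.67, 2.61 and 2.61 in Control and 2.88, 3.12 and 2.93 in MA (log2 fold change 0.35 from limma, standard error 0.10, adjusted p = 0.305). The receptors that retrieve lumenal ER proteins, Kdelr1 and Kdelr2, each had a log2 fold change of 0.01 to 0.02.

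**Figure D5:**
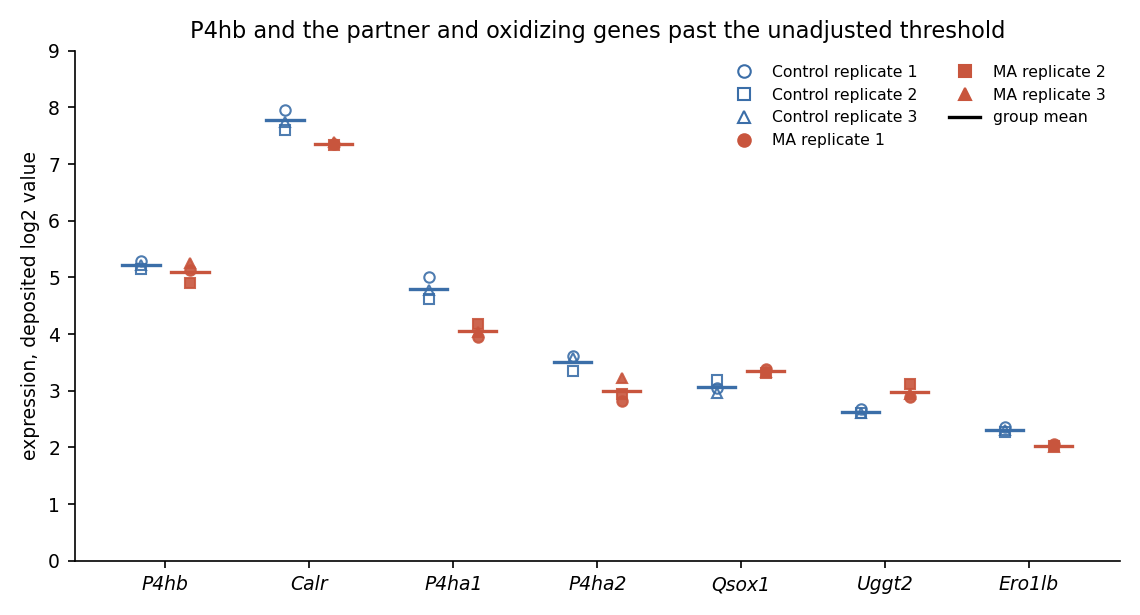
Deposited log2 expression value (y axis) of P4hb and of the partner and oxidizing genes with an unadjusted p-value under 0.05 (x axis) in each library. Open blue symbols are Control, filled red symbols are MA and bars are group means. P4ha1, P4ha2, Calr and Ero1lb are lower and Uggt2 and Qsox1 higher in each MA library, while P4hb overlaps.

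The enzymes that supply PDIs with oxidizing equivalents formed a list of 9 genes, all tested. At an unadjusted p-value under 0.05, 1 was lower and 1 was higher in MA, where 5.46% and 4.99% of all tested genes were. The median log2 fold change was -0.01. Ero1lb, which encodes the beta form of the oxidase that recharges PDIs, was 2.37, 2.27 and 2.30 in Control and 2.06, 2.02 and 2.01 in MA. Its groups did not overlap, and the log2 fold change was -0.28 (limma, standard error 0.09, adjusted p = 0.354). Ero1l, the alpha form, had a log2 fold change of -0.13 (95% interval -0.36 to 0.11). Qsox1, a sulfhydryl oxidase of the later secretory pathway, was 3.05, 3.19 and 2.96 in Control and 3.39, 3.32 and 3.33 in MA (log2 fold change 0.28 from limma, standard error 0.10, adjusted p = 0.383). The other 6, among them Prdx4, Gpx7 and Vkorc1, had unadjusted p-values above 0.05.

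Of 12 other thioredoxin-like proteins of the ER, 8 were in the table and 7 were tested: Tmx2, Tmx4, Erp29, Dnajc10, Txndc12, Txndc15 and Txndc16. Their log2 fold changes ran from -0.11 to 0.07 with a median of -0.01, and 0 of the 7 reached an unadjusted limma p under 0.05, as 10.4% of all tested genes did. Erp27 fell under the filter on low values. Pdia2, Pdilt, Agr2 and Agr3 are not analysed here. Tmx2, a transmembrane protein with log2 values of 6.45 to 6.90, had a log2 fold change of 0.04 (95% interval -0.24 to 0.32).

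Of 16 genes of the unfolded protein response, 10 were lower at an unadjusted p under 0.05 and 4 fell at the adjusted threshold, beside 5.46% and 0.0976% of all tested genes: Sdf2l1, Hspa5, Manf and Xbp1, with log2 fold changes of -1.36, -0.90, -0.85 and -0.82 (limma adjusted p between 0.0315 and 0.0403). Each of the 4 kept its call without MA replicate 3 and lost it without any one of the other 5 libraries, where its log2 fold change was still at most -0.76, and each also lost it with no filter (limma adjusted p between 0.0637 and 0.0815) and Hspa5 without the eBayes trend (0.0591) and with a pseudocount of 0.01 (0.0518).

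The 5 tested genes outside the family whose pattern over the 6 libraries was most like the mean standardized value of the 10 members were Slfn2, Cnih1, Dbil5, Klf2 and Ccdc190. Pearson's r with that mean was 0.999 for Slfn2 and 0.987 to 0.991 for the other 4, as a description over 6 libraries that share their group difference. Slfn2, a Schlafen family gene, had a log2 fold change of -0.45 and was low, at log2 values of 0.74 to 1.40. Cnih1, which encodes a cargo receptor for export from the ER, had log2 values of 5.40, 5.33 and 5.40 in Control and 5.26, 5.15 and 5.22 in MA. The mean standardized value itself was 0.84, 0.21 and 0.87 in Control and -0.45, -0.99 and -0.48 in MA, so Control replicate 2 was the Control library nearest to the MA group and MA replicate 2 the lowest of all.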

How the data were processed

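Hippocampal RNA of 3 Control and 3 MA mice was sequenced, and groups and replicate numbers were taken from the sample titles. According to the paper's methods, the authors used Hisat2 for alignment and featureCounts for counting and made FPKM from the counts. The submitters' processing notes instead name Bowtie 0.12.2 and the builds mm8 and mm9. The deposited table is named as RPKM, but its values are on a log2 scale as read here. They also appear to have been brought near a common distribution, except at the low end. Neither step is described. Depth is unknown, so the precision rests on the spread between libraries.

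A gene was tested if at least 3 libraries had a back-transformed value of 0.5 or more. The test was run with limma 3.58.1 in R 4.3.3 (lmFit, eBayes with a trend), with no further scaling or covariate and Benjamini-Hochberg adjustment. Exact permutation tests used scipy 1.17.1. In 10 simulated tables of 13321 genes with 200 genes shifted by a log2 value of 1, the median share recovered was 76.25% and that of false calls 4.96%. That shift is larger than the difference of any member, and the simulated libraries had equal noise. The share recovered at the size of the members' differences was not measured. Locations are from GENCODE M21 (GRCm38), matched on Ensembl identifier. The members and gene lists were chosen with earlier results of these data known. All members were named. Of the other lists, the genes past an unadjusted p of 0.05 were given by value, those of the unfolded protein response only in brief, as were the 5 genes most like the members' mean. Genes named beyond this rule, such as Canx and Tmx2, were picked after their values were seen. Markers of 8 cell or tissue types were summed per library. Alternatives were pseudocounts of 0.1 and 0.01, no filter, a minimum mean of 5, median centring, quantile normalization, eBayes without trend, sample quality weights, a replicate block and leaving out each library. The behavioral and quercetin experiments were not analysed here.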

Additional observations from a re-analysis of the deposited data

How the results depend on the processing

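The number of members past the adjusted threshold, 0 as reported, was 2 with limma's sample quality weights (Pdia4 and Pdia6, limma adjusted p = 0.00725 and 0.0337), where 2.05% of all genes were called lower. It was 0 to 1 when each library was left out in turn, and the 1 was Pdia4 without MA replicate 3. Of 149 combinations of a member and an alternative, 148 kept the direction. The exception was Tmx3, whose log2 fold change of -0.06 ran from -0.13 without Control replicate 1 to 0.019 without MA replicate 3. The number of members lower at an unadjusted p under 0.05, 4 as reported, was 6 with sample quality weights, which added P4hb and Pdia5, and 3 with the replicate block, which lost Tmx1. It was 3 to 4 with each library left out. Pdia3, Pdia4 and Pdia6 were among these in each of the 15 alternatives. The share of all genes lower at this unadjusted threshold was 5.46% as reported and was not counted in the alternatives. A change in the number of members is therefore not read as a result about the members. Over all genes the count past the adjusted threshold, 35 as reported, was 586 with sample quality weights, 20 with a minimum mean of 5, 3 with no filter, and 0 to 257 with each library left out. Weights gave MA replicate 3 the value 0.194, the lowest of the 6. With a minimum mean of 5, Pdia5 was not tested. The cause of these shifts was not tested.

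The groups share replicate numbers, but no source describes a pairing of mice by number, and the deviations of same-numbered libraries correlated at -0.197, -0.242 and -0.337. In a fit with the replicate block, 15 genes and 0 members passed the adjusted threshold, Sdf2l1, Hspa5, Manf and Xbp1 did not (limma adjusted p between 0.106 and 0.115), and 0 of the 6 libraries correlated best with its own number. As depth is unknown, the counting error of a low gene such as Pdia5 cannot be given.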

Other observations

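All genes that hold the whole ER stress response element within 250 bases before a RefSeq start were read from the same promoter windows. This choice was made after the values were seen, and Pdia6, which prompted it, is included in the counts. The motif was found in windows of 35 genes, of which 18 were tested. Of these 18, 10 had a lower mean in MA, as did 52.7% of all tested genes. The median log2 fold change was -0.13, beside -0.010 over all tested genes. In 7 of the 18, Pdia6 among them, each MA library lay below each Control library, as for 10.2% of all tested genes. In 1 each lay above, as for 7.32%. The 7 were Hspa5, Creld2, Pdia6, Calr, Derl3, Dnajc3 and Calr4, all of which encode proteins of the ER. Derl3, a component of ER-associated degradation, was 1.24 ± 0.17 in Control and 0.88 ± 0.13 in MA (SD, n = 3 each), with a log2 fold change of -0.35 (limma adjusted p = 0.417). The gene that was higher was Acacb, which encodes an acetyl-CoA carboxylase, at 0.69 ± 0.12 and 1.597 ± 0.29 (SD, n = 3 each, limma adjusted p = 0.117). Canx, Syvn1 and Hsp90b1 hold the motif too, with log2 fold changes of 0.01, -0.14 and -0.23 and overlapping groups.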
